A study of Spodoptera frugiperda with 3 samples.

Results

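In the fall armyworm, *Spodoptera frugiperda*, 13 unigenes carried the name of a protein of smell or taste, and they were compared among whole larvae held at 4, 25 or 40 °C. They were found among the 30327 unigenes of the 3 deposited tables, 8310 of which had a hit in the NR protein database. The first NR description of each had to contain odorant, OBP, chemosensory, pheromone, gustatory, ionotropic receptor, sensory neuron membrane or olfactory. A unigene is an assembled transcript of a de novo assembly, so that 1 gene may be split over several. The names comprised 7 binding proteins, 3 receptors, 2 sensory neuron membrane proteins and 1 odorant-degrading enzyme. No gustatory receptor, ionotropic receptor or pheromone protein was among them (0 names each).

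The larvae were wild type, came from a commercial supplier and were reared on artificial diet. T4 and T40 larvae were held for 16 h at 4 and 40 °C, and T25 larvae were the control at 25 °C, for which no duration is given. Each temperature had 1 library, made from the whole bodies of 5 pooled larvae, and the stage is labelled as the fourth instar (the fifth in the methods' account of RNA isolation). The study's methods mention 3 biological replicates, but 1 library per temperature is labelled, so no difference here could be set against the spread between larvae and no test is reported.

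In insects, odorant molecules enter pores of sensory hairs and cross a watery lymph, where small soluble carriers, the odorant-binding proteins (OBPs) and chemosensory proteins (CSPs), bind them. Receptors in the membrane of sensory neurons, the odorant, gustatory and ionotropic receptors, then respond. Sensory neuron membrane proteins (SNMPs) are CD36-type membrane proteins, of which SNMP1 takes part in pheromone detection in *Drosophila*, and esterases can clear ester odorants. Many OBPs and CSPs are also made outside the sense organs, so that RNA of a whole larva does not show which tissue made them.

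Each deposited table compares a pair of libraries and lists only the unigenes that the authors called as differing. The lists are wider than the paper's differentially expressed genes, with 12173 unigenes in T4/T25 and 20077 in T40/T25. The paper counts far fewer, at an absolute log2 ratio of 2 or more and a cut on the modified P-value. A listed member is therefore not always one of the paper's differentially expressed genes. The smallest difference in the tables was 2.35-fold by the ratios used here. No unigene with 0 reads is in the tables, and the smallest count is 1. A member therefore had to be called in at least 1 comparison, and its read count in the remaining library is known only where a second table lists it. Of the 39 possible counts (13 members in 3 libraries), 36 were known. Levels below are FPKM, the authors' fragment counts scaled to unigene length and library size, which allow different genes to be compared. Folds are ratios of read counts divided by the authors' effective library size, which was 36483914 reads in T4, 28015943 in T25 and 38643842 in T40. Beside each fold stands its 95% counting interval (exact, Clopper-Pearson, given the total of both counts), which covers counting error only.

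The tables hold between 16678975 and 24403584 reads per library. The 10 most read unigenes took 43.6% of them in T4, 33.5% in T25 and 13.4% in T40. The tissues that a whole body should hold were represented, with 29 unigenes of the muscle list, 47 of the midgut list, 13 of the cuticle list, 21 of the neural list, 9 of the fat body list and 6 of the hemocyte list. The fat body list took in 2 fibrohexamerin-like unigenes, which are named for a silk protein.

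At 40 °C, the 6 binding proteins with a T40 count were lower than at 25 °C, and the SNMPs and the esterase were higher. The remaining binding protein, A10, had no T40 count here. In T40/T25, 11 of the 13 members were listed, 8 lower and 3 higher. Among unigenes with an NR hit, 73.7% were listed there, and 46.4% of those listed were lower. In T40/T4, 10 members were listed, 7 lower and 3 higher, against 66.0% listed and 43.4% of these lower among unigenes with an NR hit. In T4/T25 fewer members were listed, 5 of 13, with 3 higher and 2 lower, against 41.1% listed and 49.4% of these higher among unigenes with an NR hit. Each pair of comparisons shares a library, so that they are not independent of each other. Being listed is in part fixed by how the members were found, and 3 of them (CSP, OBP17 and OBP25) were listed in all 3 comparisons.

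Tissue markers also differed between the same libraries. In T40/T25, 7 of 10 listed cuticle unigenes, 8 of 9 fat body unigenes, 6 of 6 hemocyte unigenes, 15 of 23 muscle unigenes and 8 of 12 neural unigenes had lower levels. Of 37 listed midgut unigenes, 23 were higher and 14 lower. The share lower among all listed unigenes with an NR hit was 46.4%. The summed level of the 11 cuticle unigenes counted in every library was 3390 CPM (reads scaled to effective library size) in T4, 2680.5 in T25 and 286 in T40. That of 22 muscle unigenes was 34897 CPM, 42610 and 6483, that of 8 fat body unigenes 179300, 87405 and 24027, and that of 5 hemocyte unigenes 727, 740 and 139 in the same order. That of 13 neural unigenes was 217, 247 and 493, and that of 45 midgut unigenes was 5083, 4577 and 11440. Most of the neural sum in T25 and T40 came from CUGBP Elav-like family member 1 (c182592_g6_i7). This unigene entered the list by the word elav in its name, with 3567 reads in T4, 4752 in T25 and 18173 in T40. The neural sum therefore does not give the direction of the other neural unigenes. In RNA of whole bodies, fewer cells of a type and less RNA per cell cannot be told apart. The part of these shifts in the levels of the members was not tested.

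**Figure D1:**
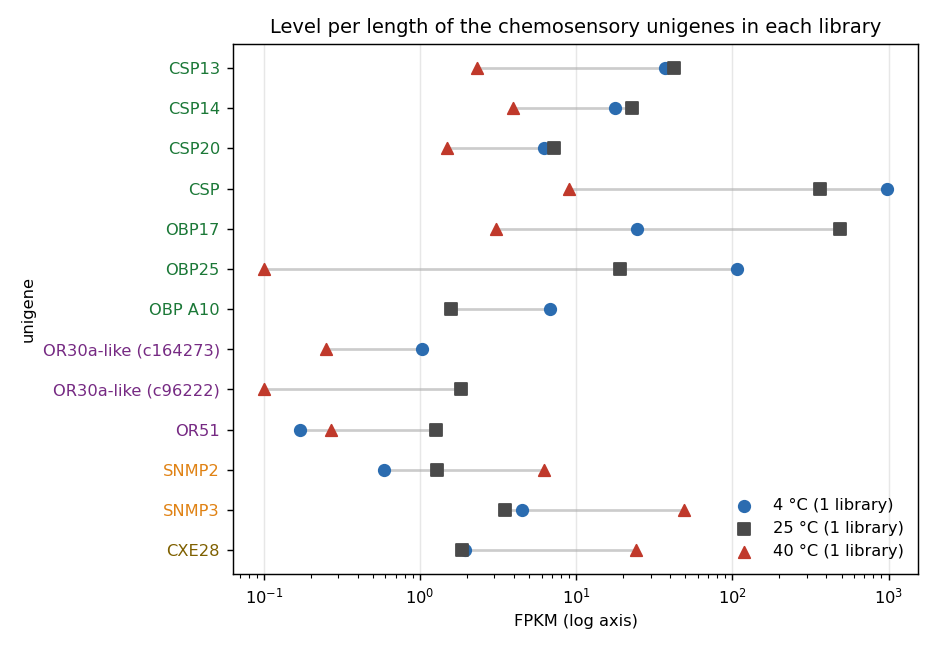
Level per length (FPKM, log axis) of the 13 chemosensory unigenes in the T4 (circles), T25 (squares) and T40 (triangles) libraries, with 1 library per temperature and therefore no error bars. Label colours give the class (green binding proteins, purple receptors, orange SNMPs, brown esterase); the T40 symbol is the lowest of the 3 for the 6 binding proteins with all 3 values and the highest for SNMP2, SNMP3 and the esterase CXE28.

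The binding protein with the highest level in any library was the unigene named chemosensory protein CSP (c85656_g1_i1), a small soluble carrier. It had 981 FPKM in T4, 365 FPKM in T25 and 8.97 FPKM in T40. Its best UniProt hit was ejaculatory bulb-specific protein 3 of *Drosophila*, a member of the same family. By FPKM it stood at rank 31 of the 7138 NR-annotated unigenes with a T4 value, at rank 88 of 7435 in T25 and at rank 2665 of 7848 in T40. In reads, it had 14962 in T4, 3987 in T25 and 126 in T40. It was 2.88-fold higher in T4 than in T25 (95% counting interval 2.78 to 2.98). In T40 it was 43.6-fold lower than in T25 (36.5 to 52.5) and 126-fold lower than in T4 (106 to 151).

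OBP17 (c185017_g2_i1) was high in the control library and low in both others. It had 595 reads in T4, 8615 in T25 and 69 in T40, or 24.4, 490 and 3.08 FPKM. In T25 it was the most abundant member, at rank 57 of the NR-annotated unigenes. It was 18.9-fold lower in T4 (17.4 to 20.5) and 172-fold lower in T40 (136 to 222) than in T25.

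OBP25 (c168383_g1_i1) had its highest level in the cold. Its reads were 4741 in T4, 604 in T25 and 4 in T40, or 108, 19.0 and 0.10 FPKM. It was 6.03-fold higher in T4 than in T25 (5.54 to 6.57). In T40 it was 208-fold lower than in T25 (80.9 to 767) and 1255-fold lower than in T4 (490 to 4610), with wide intervals because of the 4 reads. With a pseudocount of 10 the log2 ratio was −5.79 in place of −7.70 in T40/T25 and −8.37 in place of −10.29 in T40/T4. Only 6 of the 2381 listed NR-annotated unigenes that were lower in T40/T4 had a lower ratio.

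CSP13, CSP14 and CSP20 were at about their control level at 4 °C and lower at 40 °C. CSP13 (c174150_g1_i1) had 1480 reads in T4, 1203 in T25 and 84 in T40, and was 19.8-fold lower in T40 than in T25 (15.8 to 24.9). CSP14 (c181490_g1_i2) had 1094, 1006 and 223 reads, and was 6.22-fold lower in T40 (5.38 to 7.23). CSP20 (c175776_g1_i2) had 209, 175 and 46 reads, and was 5.25-fold lower in T40 (3.77 to 7.43). None of these 3 was listed in T4/T25. Their T4/T25 ratios were 0.945 for CSP13 (0.875 to 1.02), 0.835 for CSP14 (0.766 to 0.911) and 0.917 for CSP20 (0.747 to 1.13). With table totals in place of the effective library sizes, these log2 ratios were −0.25 for CSP13 and −0.43 for CSP14.

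The unigene named putative odorant-binding protein A10 isoform X1 (c162625_g1_i7) was listed only in T4/T25. In *Drosophila*, A10 is an antennal member of the chemosensory protein family. It had 359 reads in T4 and 60 in T25, or 6.80 and 1.57 FPKM, and was 4.59-fold higher in T4 (3.49 to 6.14). Its T40 count was not analysed here. Together with CSP and OBP25, it makes 3 listed binding proteins that were higher at 4 °C, against 1, OBP17, that was lower. Among listed unigenes with an NR hit, 49.4% were higher there. A10 entered this count only because it was called as differing in T4/T25. With the unlisted ones included, 4 of the 7 binding proteins were lower in T4 than in T25.

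**Figure D2:**
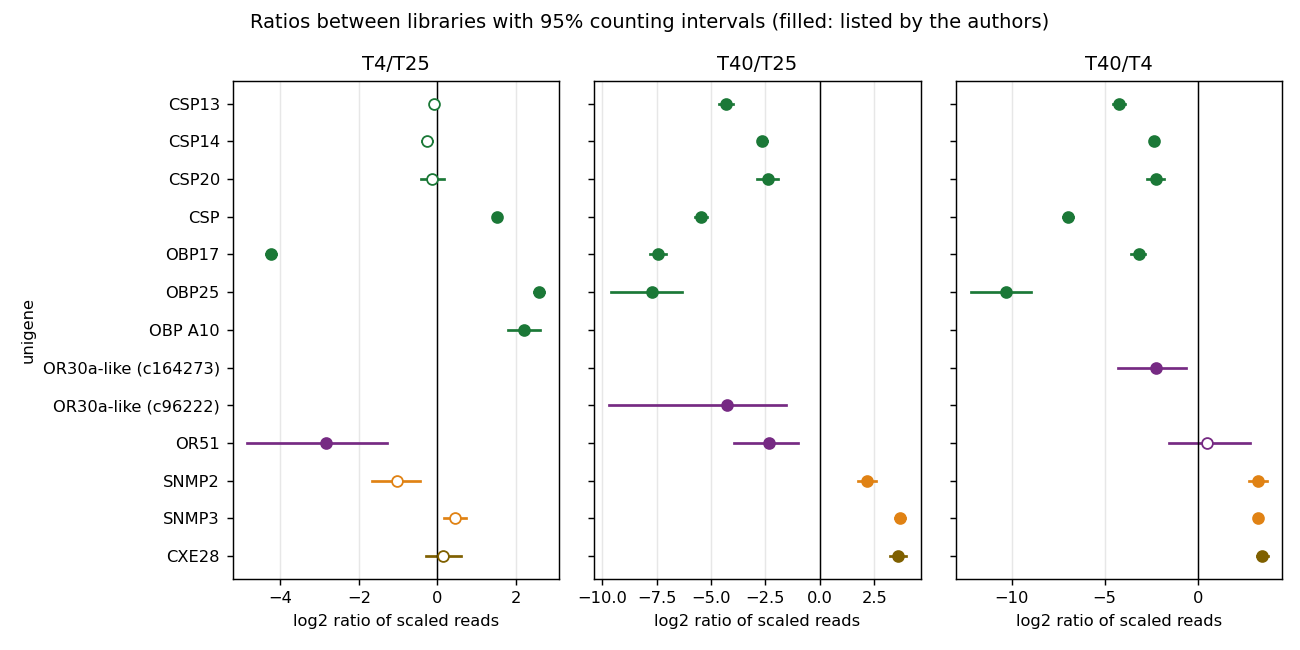
Log2 ratios of scaled reads of each unigene in T4/T25, T40/T25 and T40/T4, with bars for the 95% counting interval; filled points are listed in the authors' table for that comparison and open points are not. In T40/T25 the 6 binding proteins and 2 receptors lie left of 0, and SNMP2, SNMP3 and CXE28 lie right of it, between 2.16 and 3.67.

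The make-up of the binding-protein reads differed among the libraries. Over the 6 binding proteins counted in every library, there were 23081 reads in T4, 15590 in T25 and 552 in T40. Their sum, scaled to library size, was 1.14-fold higher in T4 than in T25 (1.11 to 1.16) and 39.0-fold lower in T40 than in T25 (35.8 to 42.5). At 4 °C, CSP took 64.8% of these reads and OBP25 took 20.5%. At 25 °C, OBP17 took 55.3% and CSP 25.6%. At 40 °C, CSP14 took 40.4%, CSP 22.8% and CSP13 15.2%, while OBP25 held 0.725%. The near-equal sums in T4 and T25 thus stood over different members, with CSP and OBP25 higher and OBP17 lower in T4. Per length, CSP held 83.5% of the summed FPKM in T4, 38.5% in T25 and 45.0% in T40.

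**Figure D3:**
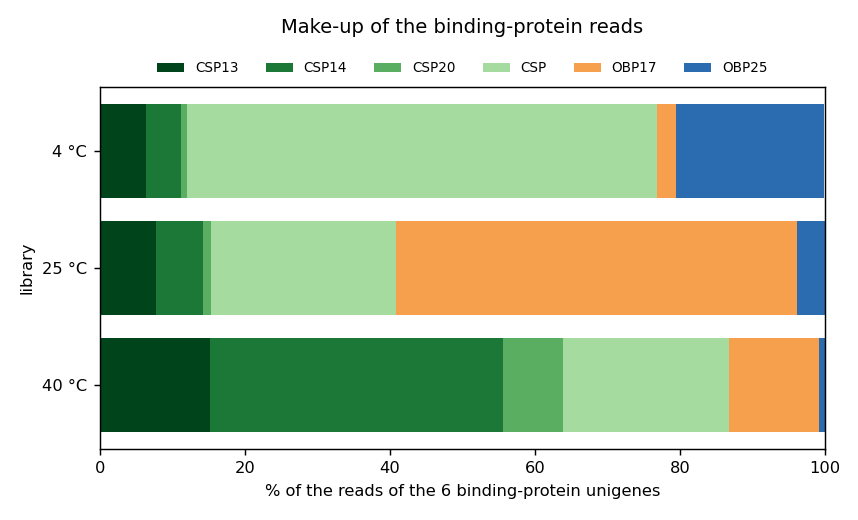
Share (%) of the reads of the 6 binding-protein unigenes that each took in the T4, T25 and T40 libraries, with 1 library per bar. CSP takes most of the T4 bar (64.8%), OBP17 most of the T25 bar (55.3%), and CSP14 the largest part of the T40 bar (40.4%).

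The protein domains, which had no part in how the members were found, divided the binding proteins otherwise than their names. CSP, CSP13, CSP14, CSP20 and A10 matched the OS-D domain of Pfam, which defines the chemosensory protein family (5 of 7). The classical OBP domain, PBP_GOBP, was matched by 0 of the 13 members. OBP25 matched JHBP, the domain of juvenile hormone-binding and takeout-like carriers. Its best hits in UniProt and in NT, the nucleotide database, were circadian clock-controlled proteins. OBP17 matched no Pfam domain, and its NT hit was an uncharacterized *S. litura* transcript. The receptor OR51 matched 7tm_6, the odorant receptor domain, both SNMPs matched CD36 and CXE28 matched COesterase.

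By other annotation, 8 further unigenes belong beside these, from a search made after the members' values had been seen. It took in unigenes with a matching word in a later NR entry or an NT transcript, or with an OS-D, PBP_GOBP, 7tm_6 or 7tm_7 domain. The most read in T25 was c164130_g1_i1, which is uncharacterized by its first NR entry and OBP18 by its second. It had 6540 reads in T4, 6196 in T25 and 57 in T40, and was 150-fold lower in T40 than in T25 (116 to 198). It was not listed in T4/T25, where its ratio was 0.811 (0.783 to 0.839). Its T25 level, 404 FPKM, lay between those of OBP17 and CSP.

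A pair of further OS-D unigenes is named after ejaculatory bulb-specific protein 3, a *Drosophila* protein of the chemosensory protein family. Of these, c172273_g3_i1 had 11369 reads in T4, 1760 in T25 and 1011 in T40. It was 4.96-fold higher in T4 (4.72 to 5.22) and 2.40-fold lower in T40 (2.22 to 2.60) than in T25. The other, c144278_g1_i1, had 47, 49 and 12 reads. All 6 OS-D unigenes with counts in T25 and T40, members or not, were listed as lower in T40, with a median log2 ratio of −2.57. Among all listed unigenes with an NR hit, 46.4% were lower there. The 3 OS-D unigenes listed in T4/T25 were all higher in T4, where 49.4% of listed unigenes with an NR hit were higher.

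Both PBP_GOBP unigenes were at low counts. The B1 protein-like unigene c111020_g1_i1, which later NR entries name OBP11, had 1 read in T4, 13 in T25 and 4 in T40. The uncharacterized c138698_g1_i1, named OBP33 in a later entry, had 15, 29 and 3 reads. At these counts the T40/T25 ratios were 4.48-fold lower (1.38 to 18.9) and 13.3-fold lower (4.13 to 68.4). One further unigene went the other way. It was c215893_g1_i1, which had no NR hit and matched a general odorant-binding protein 70 transcript of *S. litura*. It had 8 reads in T4, 5 in T25 and 31 in T40.

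The receptors were at the low end of the tables. OR51 (c141834_g1_i1), a putative olfactory receptor, had 4 reads in T4, 22 in T25 and 6 in T40, or 0.17, 1.26 and 0.27 FPKM. It was 7.16-fold lower in T4 (2.43 to 28.6) and 5.06-fold lower in T40 (1.99 to 15.2) than in T25. The unigene c102903_g1_i1 matched the same NT transcript as OR51, an *S. litura* odorant receptor 46a-like RNA, and had 5, 18 and 5 reads. Both were thus highest in the control library, and since they share a transcript they are not separate evidence of a receptor's direction.

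The other 2 receptor unigenes hit the same *S. litura* protein, odorant receptor 30a-like. Of these, c96222_g1_i1 had 14 reads in T25 and 1 in T40, and was 19.3-fold lower in T40 (2.94 to 817). The other, c164273_g1_i1, had 18 reads in T4 and 4 in T40, and was 4.77-fold lower in T40 than in T4 (1.57 to 19.4). As each is in a single table, their remaining counts were not analysed here. All receptor counts lay between 1 and 22 reads, so that only large differences were detectable at this depth.

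The binding proteins apart from A10 were at higher levels than the receptors in T25, and the members of both classes counted in both libraries were lower at 40 °C than at 25 °C. In T25 the binding proteins had 1.57 to 490 FPKM, A10 being the lowest, and the receptors with a value had 1.26 and 1.84 FPKM. In T40/T25, 6 of 6 listed binding proteins and 2 of 2 listed receptors were lower, against 46.4% of listed unigenes with an NR hit. The OR30a-like c96222_g1_i1 was listed in T40/T25 only, and c164273_g1_i1 in T40/T4 only. Each had counts there only because it was called as differing in that comparison. The receptor counts and medians include these unigenes, so they are in part fixed by that call. The median log2 ratio, with a pseudocount of 1 on scaled reads, was −4.86 for the 6 binding proteins and −2.71 for the 2 receptors. The receptor median depends on the pseudocount, and with 10 it was −1.30. The median of all listed unigenes with an NR hit was 1.40 there, without a pseudocount. The receptor intervals reach over those of CSP14 and CSP20, and the difference between the classes was not tested. In T4/T25 the median was −0.08 for the 7 binding proteins and −2.55 for OR51, the only receptor with both counts. In T40/T4 it was −3.69 for 6 binding proteins and −0.78 for 2 receptors, OR51 being 1.42-fold higher in T40 with an interval of 0.336 to 6.82.

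**Figure D4:**
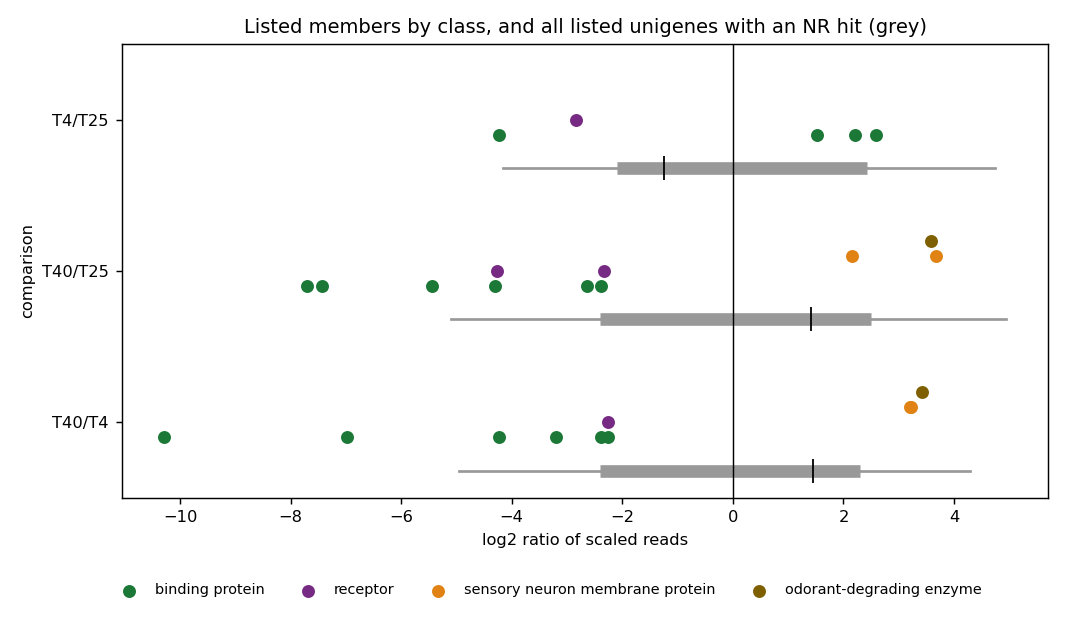
Log2 ratios of the listed members by class (points) in each comparison, with grey bars for all listed unigenes with an NR hit (thick bar, 25th to 75th percentile; thin line, 5th to 95th; black tick, median). In T40/T25 OBP25, OBP17 and CSP lie below the 5th percentile of −5.10, while the SNMPs and the esterase lie within the grey range.

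The SNMPs were higher at 40 °C. SNMP3 (c184199_g5_i2) had 295 reads in T4, 166 in T25 and 2921 in T40, or 4.50, 3.50 and 48.7 FPKM. It was 12.8-fold higher in T40 than in T25 (10.9 to 15.0) and 9.35-fold higher than in T4 (8.29 to 10.6). SNMP2 (c186946_g1_i2) had 38, 60 and 369 reads, and was 4.46-fold higher in T40 than in T25 (3.39 to 5.96). In T40 it was 9.17-fold higher than in T4 (6.55 to 13.2). Neither was listed in T4/T25, where the ratio was 1.36 for SNMP3 (1.12 to 1.66) and 0.486 for SNMP2 (0.315 to 0.742).

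Their direction was not that of most CD36 unigenes. Of the other 7 unigenes with a CD36 domain, scavenger receptors and a croquemort-like one, 5 were listed in T40/T25, with 1 higher and 4 lower, where 46.4% of all listed unigenes with an NR hit were lower. The higher one was the croquemort-like c184220_g6_i1, named for a *Drosophila* receptor for apoptotic cells, with 1034 reads in T25 and 11483 in T40. It was 8.05-fold higher in T40 (7.55 to 8.59). The scavenger receptor class B unigene c186438_g3_i8 had 322 reads in T25 and 4 in T40, and was 111-fold lower (43.0 to 410). With 2 SNMPs against 5 others, this difference was not tested.

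**Figure D5:**
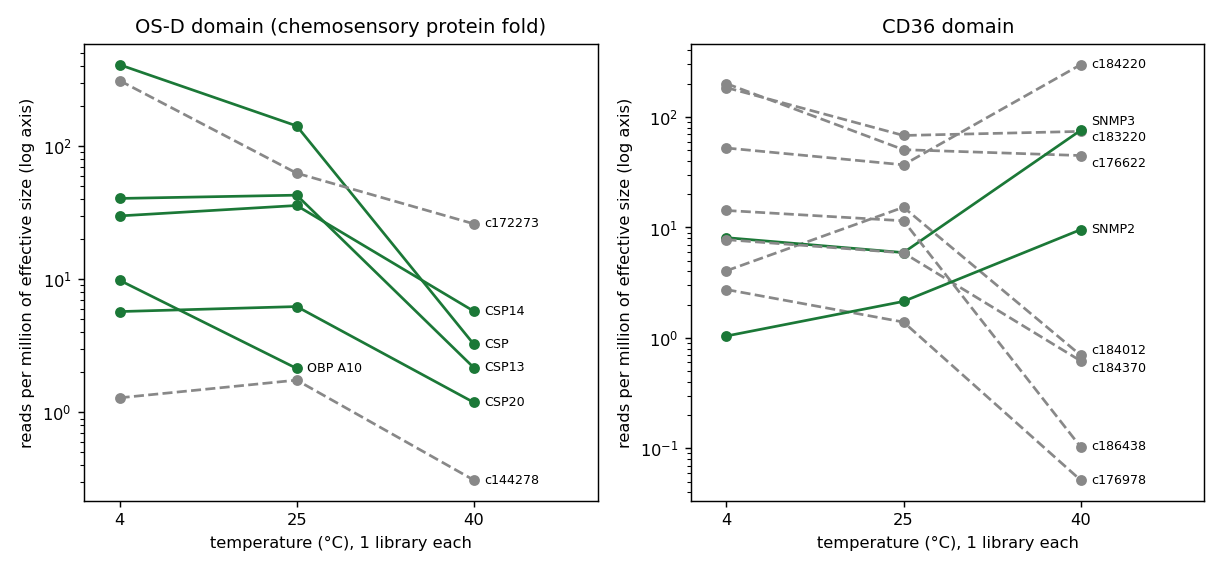
CPM, the reads scaled to effective library size (log axis), at 4, 25 and 40 °C, 1 library each, of the unigenes with an OS-D domain (left) and a CD36 domain (right); green solid lines are members and grey dashed lines are other unigenes, labelled by cluster number. The 6 OS-D unigenes with a T40 value are lowest there, while SNMP2, SNMP3 and the croquemort-like c184220 are highest there.

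CXE28 (c177682_g6_i1) is named for an odorant-degrading carboxylesterase of the pink stem borer *Sesamia inferens*. It had 103 reads in T4, 71 in T25 and 1172 in T40, or 1.94, 1.85 and 24.1 FPKM. It was 12.0-fold higher in T40 than in T25 (9.41 to 15.4) and 10.7-fold higher than in T4 (8.78 to 13.3). Its T4/T25 ratio was 1.11 (0.815 to 1.53), and it was not listed there. UniProt names it after esterase FE4 of an aphid, an enzyme of insecticide resistance.

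Among related genes, the transduction list held 27 unigenes, of which 10 were arrestin domain-containing proteins rather than sensory arrestins. Of 14 listed in T40/T25, 11 were higher and 3 lower (21.4% lower, against 46.4% of listed unigenes with an NR hit). Of 9 listed in T4/T25, 4 were higher and 5 lower (55.6% lower), where 49.4% of listed unigenes with an NR hit were higher. The highest ratio in T40/T25 was that of soluble guanylate cyclase 88E (c173858_g1_i2), an enzyme that makes cyclic GMP, with 2 reads in T25 and 53 in T40, or 19.2-fold higher (5.06 to 163). An arrestin domain-containing protein 5-like unigene (c179927_g1_i2) had 7 and 124 reads and was 12.8-fold higher (6.05 to 32.6). The lowest ratios were those of channels. The channel painless (c182569_g1_i1), which senses noxious heat in *Drosophila*, had 1878 reads in T4, 4058 in T25 and 484 in T40. It was 11.6-fold lower in T40 than in T25 (10.5 to 12.7). Pickpocket protein 28 (c183884_g2_i1), a *Drosophila* water taste channel, had 326 reads in T25 and 81 in T40 and was 5.55-fold lower (4.34 to 7.17). A pyrexia-like channel (c185085_g1_i1), of a kind that opens on warming in *Drosophila*, had 1670 reads in T4 and 5300 in T25. It was 4.13-fold lower in T4 (3.91 to 4.37).

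Other small carriers of lipophilic molecules, a list of 17, split into 8 higher and 5 lower at 40 °C (38.5% lower, against 46.4% of listed unigenes with an NR hit). At 4 °C, 6 were higher and 3 lower (33.3% lower), where 49.4% of listed unigenes with an NR hit were higher. A fatty acid-binding protein 1-like unigene (c148792_g1_i1) was 278-fold higher in T40 than in T25 (245 to 317). It had 1674 reads in T4, 244 in T25 and 93607 in T40, so that it was also higher in T4 than in T25. The ecdysteroid-regulated 16 kDa protein (c180588_g2_i1), of the NPC2 type of lipid carriers, was 62.7-fold lower in T40 than in T25 (54.8 to 72.0). In T4 it was 7.70-fold lower than in T25 (7.32 to 8.12). A takeout-like unigene (c165891_g3_i6) was 31.2-fold higher in T4 (16.8 to 65.5) and 12.5-fold higher in T40 (6.66 to 26.6) than in T25. Another takeout unigene (c163616_g1_i1) had 464 reads in T4, 169 in T25 and 25 in T40. It was 9.32-fold lower in T40 than in T25 (6.10 to 14.8), so that takeout unigenes went both ways at 40 °C. The split of this list at 40 °C was near that of all listed unigenes. A list of 113 enzymes was taken by family name (cytochromes P450, glutathione transferases, UDP-glucuronosyltransferases and aldehyde oxidases) as candidates for odorant clearance. Whether any of them clears odorants was not tested. Of 86 listed in T40/T25, 33 were higher and 53 lower (61.6% lower, against 46.4%). Of 67 listed in T4/T25, 50 were higher and 17 lower (25.4% lower), where 49.4% of listed unigenes with an NR hit were higher.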

How the data were processed

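Reads of the 3 libraries were trimmed (Trimmomatic 0.38), checked (FastQC 0.11.7), pooled for a Trinity assembly, reduced to unigenes with CD-HIT, aligned with Bowtie 1.1.2 and quantified with RSEM by the authors. The deposited read counts are whole numbers per unigene, without normalization. FPKM values were scaled by the authors to length and library size. Normalized values, as deposited, are on a log2 scale of 1 plus scaled counts, and the effective library size was recovered from them using unigenes with at least 1000 reads. The methods name DESeq2 for that step. Columns with the authors' fold changes and P-values were not used.

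Printed folds had a pseudocount of 0 and class medians of 1. Their intervals were tested on simulated Poisson counts, which is the model they assume. That test does not cover the spread between larvae. With 1 library per temperature there was no p-value to compute. Members and lists were chosen with earlier results of these data known. Members with at least 50 reads in a library were named, as were the receptors below it. From each related list, at most the 2 highest and 2 lowest unigenes with 50 reads could be named. Unigenes of other annotation and of the CD36 and JHBP domains were chosen after their values were seen. Of the members' hits, 0 were found in the RefSeq gene table, and no sequence was used here. Alternatives were TMM scaling (edgeR 4.0.16, R 4.3.3), table totals, FPKM ratios, pseudocounts of 1 and 10, read minimums of 10 and 50, an absolute log2 ratio of 2, and 1 unigene per NR accession. Scripts ran in Python 3.11.15 with scipy 1.17.1.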

Additional observations from a re-analysis of the deposited data

How the results depend on the processing

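Each value rests on 1 pool of 5 larvae, so the spread between larvae affects the values but could not be estimated. Read numbers also limit the receptors, the PBP_GOBP unigenes and OBP25 in T40 (4 reads). No listed member changed direction under TMM scaling, table totals, FPKM ratios or pseudocounts of 1 and 10. For TMM scaling, table totals and pseudocounts this was fixed in advance. Listed ratios were at least 2.35-fold, and these scalings shift log2 ratios by 0.26 or less. A pseudocount on scaled reads cannot change the sign of a ratio. No paired analysis was possible because each temperature has 1 library. TMM scaling shifted every log2 ratio of T4/T25 by −0.04, of T40/T25 by 0.19 and of T40/T4 by 0.23, and table totals by −0.17, 0.09 and 0.26. Of 33 member ratios, TMM scaling moved 2 beyond the counting interval, table totals 8, FPKM ratios 3 and the pseudocount of 10 moved 3, namely OBP25 to −5.79 in T40/T25 and −8.37 in T40/T4, and the OR30a-like c96222_g1_i1 to −1.32 in T40/T25. Dropping members without a chemosensory name removed none, which was fixed in advance because the same words had found them.

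With a minimum of 50 reads, 1 member in place of 2 was listed lower in T4/T25. The 8 unigenes of other annotation were added after the data were seen. With them, 5 were listed higher and 4 lower in T4/T25. In T40/T25, 4 were higher and 14 lower, and in T40/T4, 4 were higher and 12 lower. Among listed unigenes with an NR hit, 49.4% were higher in T4/T25, 46.4% lower in T40/T25 and 43.4% lower in T40/T4. For the binding proteins, summed reads gave a log2 ratio of 0.20 in T4/T25, opposite in sign to the median of −0.08, because CSP and OBP25 hold most of the T4 reads. Summed reads gave −5.28 in T40/T25 and −5.47 in T40/T4, and table totals gave a T4/T25 median of −0.25. The receptor medians also varied. A pseudocount of 10 gave −1.43 in T4/T25 (−2.55 with 1), −1.30 in T40/T25 (−2.71) and −0.42 in T40/T4 (−0.78), and a minimum of 10 reads gave −1.98 in T40/T4, where summed reads gave −1.22.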

Other observations

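JHBP is the domain matched by OBP25. Of 22 such unigenes outside the members, 9 were listed as higher and 10 as lower in T40/T25, and 9 as higher and 1 as lower in T4/T25. The T40/T25 split was near that of all listed unigenes with an NR hit, of which 46.4% were lower, and in T4/T25 49.4% of these were higher. The uncharacterized c163093_g1_i1 had 528 reads in T4, 71 in T25 and 9960 in T40. Another, c183284_g1_i1, had 8161, 1074 and 221 reads, the same order of libraries as OBP25. Further JHBP unigenes had that order too, among them the takeout unigene c163616_g1_i1 with 464, 169 and 25 reads. The circadian clock-controlled protein-like c165940_g1_i1 had 272, 393 and 2 reads. The unigene c161684_g1_i1, named OBP21 in a later NR entry, had 808, 115 and 87 reads and was 5.40-fold higher in T4 than in T25 (95% counting interval 4.43 to 6.62). These unigenes were chosen for mention after their values had been seen, and no test compares them with OBP25.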
